A study of Mus musculus with 12 samples.

Results

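The genes of the cytosolic ribosomal proteins were read in RNA-seq of brown adipose tissue (BAT). They were taken by symbol, as every listed gene named Rpl or Rps with a number and at most a short ending, together with Rplp0, Rplp1, Rplp2 and Rpsa, which gave 86 of the 25124 listed genes. Of these, 77 are canonical genes, 46 for the large subunit with its stalk and 31 for the small subunit, and 9 are paralogs, whose symbols end in l or l1. The study compared 4 groups of 3 libraries from 10-week-old male mice. Mice deficient in Txnip (Txnip-/-) were held on a C57B/6J background and set against WT littermates. The methods name no tissue-specific driver for the deficiency, so it is not limited to brown adipocytes as described. The mice were kept for 1 week at 23 °C, which is room temperature (RT) and a mild cold load for a mouse, or at 30 °C, which is thermoneutral (TN). Each group is named by its temperature and genotype, from RT WT to TN Txnip-/-. The labels do not tie a library to 1 animal, so p-values measure the spread between these libraries.

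A ribosome is built from a small subunit, which reads the mRNA, and a large subunit, which joins amino acids, each made of ribosomal RNA and many proteins, most of them in a single copy. The mRNAs of these proteins are among the most abundant in a cell, and most start with a C followed by an unbroken run of pyrimidines, the terminal oligopyrimidine (TOP) motif, through which their translation is controlled by mTORC1 and LARP1. Some ribosomal proteins have a second gene, a paralog, that makes a closely related protein, often with a pattern of its own across tissues. Brown adipocytes burn lipid to make heat through Ucp1 and are less active at thermoneutrality.

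The annotated start sites are printed to show how far the listed transcripts carry such a run. They are given for the 4 most abundant canonical genes whose start matched RefSeq, for matched canonical genes with a change between genotypes, and for the paralogs and partners of the tested pairs that matched. Each line holds 30 bases of RefSeq sequence (GRCm38.p6), 10 before and 20 from the start of the listed transcript, and the capitals mark runs of at least 5 pyrimidines. Several of the canonical genes, such as Rps15, Rpl23 and Rpl10, have no such run in these 30 bases, and in Rps2, Rplp0 and Rps12 it begins past the annotated start.
Rplp2, chr7:141447641-141447670, plus strand: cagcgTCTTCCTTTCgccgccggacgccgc
Rps15, chr10:80292421-80292450, plus strand: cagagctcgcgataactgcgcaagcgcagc
Rps21, chr2:180257369-180257398, plus strand: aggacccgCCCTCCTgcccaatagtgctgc
Rps2, chr17:24720053-24720082, plus strand: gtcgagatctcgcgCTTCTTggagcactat
Rpl23, chr11:97782420-97782449, minus strand: gtccggtcacgtggctgagtgggcggggcc
Rpl26, chr11:68901556-68901585, plus strand: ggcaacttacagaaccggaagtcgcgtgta
Rps28, chr17:33824543-33824572, minus strand: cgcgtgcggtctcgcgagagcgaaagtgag
Rpl10, chrX:74270806-74270835, plus strand: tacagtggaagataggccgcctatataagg
Rpl41, chr10:128549149-128549178, minus strand: gggccggctcggaagtgacgacaccgagca
Rpl36a, chrX:134585644-134585673, plus strand: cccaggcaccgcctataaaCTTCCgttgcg
Rps3a1, chr3:86142649-86142678, minus strand: gccggaagggcgaaagagcaagggtcacgt
Rps24, chr14:24490668-24490697, plus strand: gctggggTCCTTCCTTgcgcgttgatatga
Rplp0, chr5:115559457-115559486, plus strand: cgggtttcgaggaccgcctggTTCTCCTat
Rps12, chr10:23787190-23787219, minus strand: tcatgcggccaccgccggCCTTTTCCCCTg
Rps27, chr3:90213629-90213658, minus strand: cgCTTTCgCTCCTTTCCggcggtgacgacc
Rps27l, chr9:66946076-66946105, plus strand: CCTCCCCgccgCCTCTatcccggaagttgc
Rpl36al, chr12:69184048-69184077, minus strand: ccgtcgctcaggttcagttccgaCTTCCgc
Rpl22, chr4:152325716-152325745, plus strand: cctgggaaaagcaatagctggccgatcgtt
Rpl22l1, chr3:28805498-28805527, plus strand: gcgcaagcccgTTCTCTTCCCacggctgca
Rpl39, chrX:37085203-37085232, minus strand: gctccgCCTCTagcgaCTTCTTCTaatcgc
Rpl39l, chr16:10170218-10170247, plus strand: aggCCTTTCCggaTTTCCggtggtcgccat
Rpl7l1, chr17:46782637-46782666, minus strand: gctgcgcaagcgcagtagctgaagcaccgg
Rps4x, chrX:102189372-102189401, minus strand: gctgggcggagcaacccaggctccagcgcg

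The window around the start, 20 bases before and 30 after it, could be read for 56 of the 77 canonical genes, 7 of the 9 paralogs and 9255 of the 12486 genes tested across all libraries. A pyrimidine run of at least 8 bases on the coding strand lay in it for 29 canonical genes (51.8%), for 3 paralogs (42.9%) and for 18.1% of all genes tested. The longest run had a median of 8 bases in the canonical genes, 7 in the paralogs and 5 in all genes. In the promoter from 250 bases before to 50 after the start, searched on both strands, the letters CCGGAAG, a site for ETS factors, were found in 37.5% of the canonical genes and 19.1% of all genes, and GCCATNTT, a site for YY1, in 17.9% and 9.13%. GGGCGG, the GC box, was about as frequent in canonical genes (62.5%) as in all genes (65.2%). The same held for TATAAA, in 8.93% and 7.11%, and for the E-box CACGTG, in 8.93% and 10.2%. These letters may overlap one another, and a match describes the sequence only. In the genes printed, the longest run in that window was between 3 bases, in Rpl10, Rpl41 and Rpl7l1, and 11 bases, in Rps12. Of the pairs, Rpl22 had 4 and its paralog Rpl22l1 had 10, while Rps27 and Rps27l had 9 each.

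The libraries held between 29.93 and 47.44 M reads. Levels are given as TPM, a share of all transcripts that nominally sums to a fixed total. TPM are scaled for transcript length, so that genes can be set beside each other. The listed genes held between 55.38% and 57.55% of the nominal total, depending on the library. The tissue expressed its own markers, since 10 brown adipocyte genes summed to between 5085 and 13014 TPM in the 12 libraries. Txnip checked the labels, with means of 613 and 1131 TPM in RT WT and TN WT against 29.0 and 11.98 TPM in RT Txnip-/- and TN Txnip-/-. Markers of other cell types differed in level between groups. The summed TPM of 12 skeletal muscle genes ran from 3.12 to 3.62 in RT WT, from 27.4 to 67.6 in RT Txnip-/-, from 4.05 to 22.8 in TN WT and from 5.16 to 21.5 in TN Txnip-/-, and that of 10 macrophage genes from 82.2 to 95.7, from 136 to 220, from 176 to 308 and from 500 to 710. None of the markers of either list was at 0 in all libraries of a group. In bulk tissue, fewer cells of a type and less RNA per cell cannot be told apart, and the part of these cells in the results below was not tested.

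The canonical genes were expressed at a high level throughout. All but Rps15a had a mean above that of 92.7% of the listed genes, and the highest were Rplp2 and Rplp1, the acidic proteins of the stalk that recruits translation factors, with means over the 12 libraries of 1020 and 875 TPM, and Rps14, a protein of the small subunit, with 591 TPM. The lowest were Rps15a with 18.9 TPM, Rpl15 with 49.1 TPM and Rps20 with 60.1 TPM. Rps15a and Rps20 were listed with long transcripts of 5127 and 3440 bases, against a median of 718 bases for the 77 genes and 2644 for all genes tested, and TPM divide by that length. Within a group the genes varied little, with a median coefficient of variation of 4.26% in RT WT and 7.62% in TN Txnip-/-.

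The summed TPM of the 77 canonical genes differed from group to group. It was 16149, 17137 and 16350 in RT WT, 20650, 19389 and 18964 in RT Txnip-/-, 20870, 21577 and 23503 in TN WT, and 27759, 26929 and 24529 in TN Txnip-/-. RT WT lay below every other library and TN Txnip-/- above every other, and the libraries of RT Txnip-/- lay just below those of TN WT. The group means were 16545 ± 522, 19668 ± 877, 21983 ± 1363 and 26406 ± 1677 (SD, n = 3), or 2.90%, 3.45%, 3.92% and 4.70% of the TPM of all listed genes. Loss of Txnip went with a 1.19-fold sum at RT and a 1.20-fold sum at TN, and thermoneutrality with a 1.33-fold sum in WT and a 1.34-fold sum in Txnip-/- mice. No test was made on the sums.

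**Figure D1:**
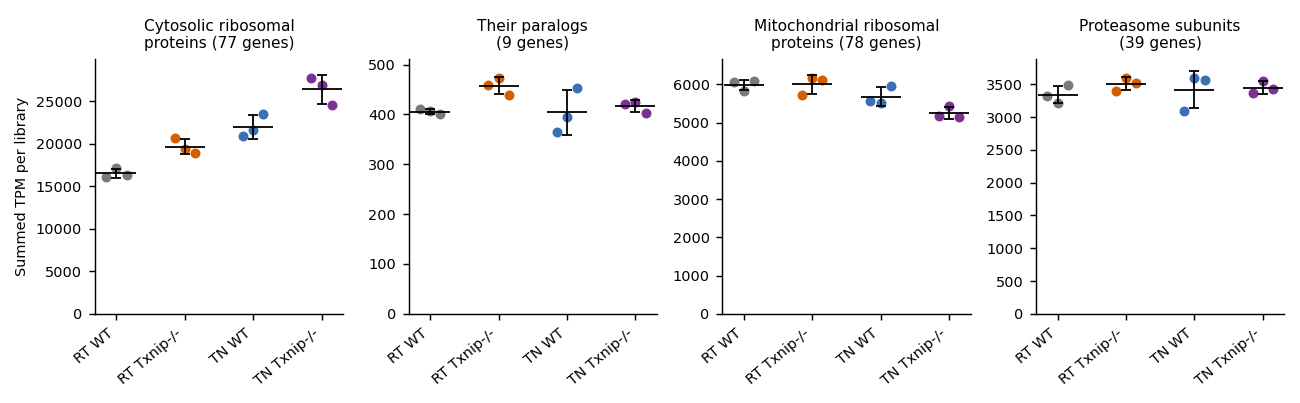
Summed TPM per library (vertical axis, from 0) of the 77 canonical ribosomal protein genes, their 9 paralogs, the mitochondrial ribosomal proteins and the proteasome subunits in the 4 groups. Points are libraries and the bar with whiskers is the mean ± SD (n = 3). The canonical sum steps up from 16545 in RT WT to 26406 in TN Txnip-/-, and the other sums do not take these steps.

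The order held gene by gene. In 73 of the 77 canonical genes the group means ran upwards from RT WT through RT Txnip-/- and TN WT to TN Txnip-/-. In the other 4, among them Rpl41, Rps19 and Rpl19, RT Txnip-/- was above TN WT. The summed TPM of the large subunit was between 1.32 and 1.38 times that of the small subunit in every library. Libraries of 1 group also moved as a whole. TN WT replicate 3 was the highest of its group for 74 of the 77 genes, RT Txnip-/- replicate 1 for 67 and RT WT replicate 2 for 63, and TN Txnip-/- replicate 3 was the lowest of its group for 69. The genes are therefore not independent measurements of a group. Ribosomal protein genes have many near-identical copies in the genome, which can share reads with them, and a strand setting is not given in the sources used here, so single levels are uncertain to that extent.

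**Figure D2:**
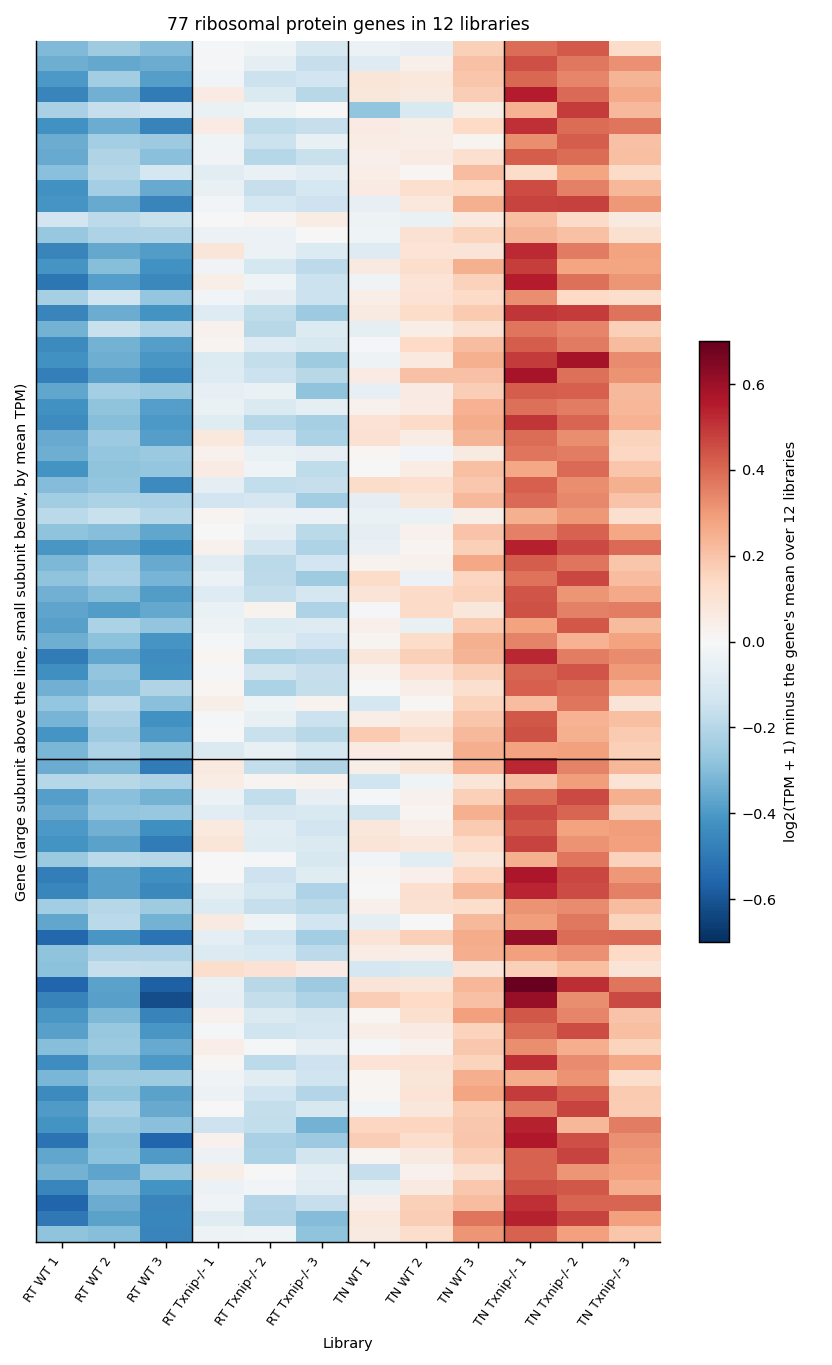
Each row is 1 of the 77 canonical genes and each column 1 of the 12 libraries, with log2(TPM + 1) relative to the gene's mean over the libraries in colour (red is higher, blue lower). Nearly all rows run from blue in RT WT to red in TN Txnip-/-, and single libraries such as TN WT replicate 3 are shifted in most rows at once.

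The first comparison asked what loss of Txnip changes at room temperature. All 77 canonical genes had a higher mean in RT Txnip-/- than in RT WT, where 59.2% of all genes tested did. The median log2 fold change, on the scale of TPM + 1, was 0.25 with a range from 0.07 to 0.40, against a median of 0.03 over 11980 genes tested with limma. On the authors' log2 values the RT median of these genes was 0.13 and that over all genes was -0.0047. In those values 15 of the 86 genes, at RT as at TN, were listed with another transcript than in the TPM. In 69 canonical genes the 3 Txnip-/- libraries all lay above the 3 WT libraries, which held for 15.1% of all genes. After Benjamini-Hochberg adjustment over all genes, 6 canonical genes were called, at a fold past the threshold in the methods and an adjusted p under 0.05 (0.76% of all genes were called higher), and 7 at that adjusted p with any fold (0.785%). The 6 calls became 3 under median centring (0.634% of all genes) and 0 with a replicate block (0.401%), without a filter on low values (0.091%) and on the authors' log2 values (0.559%). Before adjustment, 68 had a p under 0.05 (9.89%).

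The 6 genes called at RT included Rpl23, Rpl26, Rpl10 and Rps28. Rpl23, a protein of the large subunit that can also bind Mdm2, was at 176, 191 and 182 TPM in RT WT and at 257, 245 and 224 TPM in RT Txnip-/-. The groups did not overlap, and its log2 fold change was 0.40 (SE 0.07, adjusted p = 0.0404 with limma). Rpl26, a large subunit protein at the exit of the peptide tunnel, had 225, 242 and 236 TPM in RT WT and 330, 302 and 291 TPM in RT Txnip-/-, a log2 fold change of 0.39 (SE 0.06). Rps28 was 0.35 and Rpl10, which completes the large subunit in the cytoplasm, was 0.32 higher on the log2 scale, with adjusted p between 0.039 and 0.0487 over the 6 genes. The smallest differences were those of Rpl38, at 0.07 (165 ± 1.36 TPM in RT WT and 173 ± 8.16 TPM in RT Txnip-/-), of Rps9 at 0.08 and of Rps26 at 0.11, and none of these passed the test. No canonical gene was called when any of the 6 libraries was left out, although the median stayed between 0.21 and 0.28. In the same comparison all 8 tested skeletal muscle markers were called higher in RT Txnip-/- (median log2 fold change 2.26), as were 3 of 9 macrophage and 1 of 3 lymphocyte markers, and 2 of 10 brown adipocyte markers were called lower (median -0.24).

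The second comparison asked the same at thermoneutrality. Again all 77 canonical genes had the higher mean in Txnip-/- (51.9% of all genes), with a median log2 fold change of 0.26 and a range from 0.09 to 0.43, against a median of 0.01 over 12891 genes. On the authors' log2 values the TN median was 0.17. The groups did not overlap for 51 of them (17.7% of all genes). The test called 10 canonical genes by fold and adjusted p (6.49% of all genes were called higher) and 15 at any fold (6.68%), and 60 had an unadjusted p under 0.05 (15.6%). The 10 and 15 became 1 and 4 under median centring (5.65% and 5.84% of all genes) and 1 and 1 with a replicate block (5.65% for each). They were 1 and 2 without a filter on low values (2.15% and 2.2%), and 0 and 11 on the authors' log2 values (4.72% and 7.14%).

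Of the genes called at TN, 3 had also been called at RT, among them Rpl23 and Rpl26. These 3 are 50% of the 6 genes called at RT and 30% of the 10 called at TN, where over all genes called higher the shares were 60.4% and 6.6%. Rpl26 was at 292, 332 and 330 TPM in TN WT and at 446, 400 and 378 TPM in TN Txnip-/-, without overlap, and its log2 fold change was 0.36 (adjusted p = 0.0444 with limma). The largest change was that of Rpl41, the shortest ribosomal protein, with 371, 417 and 462 TPM in TN WT and 532, 631 and 527 TPM in TN Txnip-/-, a log2 fold change of 0.43 (SE 0.11, adjusted p = 0.0433 with limma). Rpl36a, which lies close to the tRNA exit site of the large subunit, had 144, 152 and 168 TPM in TN WT and 219, 207 and 198 TPM in TN Txnip-/-, a log2 fold change of 0.43 (SE 0.08). Rplp0, the base of the stalk, was 0.35 higher, and Rps3a1, Rps24, Rps12 and Rpl17 were 0.39, 0.35, 0.33 and 0.33 higher, and the adjusted p of the 10 genes lay between 0.0172 and 0.049 with limma. Rpl36 at 0.09, Rpl23a at 0.10 and Rpl7a at 0.11 had the smallest differences and did not pass the test. Leaving out single libraries moved the count from 0, without TN Txnip-/- replicate 1 or 2, to 18, without TN Txnip-/- replicate 3 (2.79% and 2.8% of all genes, and 5.64%). It was 1 without TN WT replicate 1 or 2 (4.1% and 4.93% of all genes) and 6 without TN WT replicate 3 (4.17%). TN WT replicate 2 and TN Txnip-/- replicate 2 were the TN libraries with the higher levels of skeletal muscle markers. Without both, the count was 0 (0.786% of all genes) and the median was 0.23. At TN all 10 macrophage, 7 of 8 fibroblast, 3 of 8 lymphocyte, 2 of 4 white adipocyte and 1 of 8 endothelial markers were called higher in Txnip-/-, and 5 of 10 brown adipocyte markers were called lower.

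Across the 77 canonical genes the RT and TN log2 fold changes between genotypes, which share no library, had a Pearson r of 0.378 (0.511 over 11893 genes tested in both). The genes are not independent of one another. No canonical gene showed a difference between its genotype effects at TN and RT that passed adjustment. The interaction, tested with limma on all 12 libraries, had a median of -0.01 over the 77 genes with 37 above 0, none passed an adjusted p of 0.05 (0.0% of all genes did in the higher direction and 0.00801% in the lower, which is Txnip alone), and 1 had an unadjusted p under 0.05, in the higher direction (6.13% of all genes). That gene was Rpl41, whose genotype effect was 0.28 larger at TN than at RT on the log2 scale (SE 0.12, adjusted p = 0.364 with limma). Its neighbours in size were Rpl38 at 0.17 and Rpl27a at 0.16, and among the lowest were Rps18 at -0.14 and Rpl5 at -0.12.

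The third comparison asked how the temperature of housing acts in WT mice. All 77 canonical genes were higher at TN than at RT (71.2% of all genes), and the groups did not overlap for 76 (45.5% of all genes). The median log2 fold change was 0.44, with a range from 0.06 to 0.66. Over 12486 genes the median was itself shifted to 0.18, so that the canonical genes lay 0.26 above it. By fold and adjusted p, 60 canonical genes were called higher (31.4% of all genes) and 75 at any fold (40.4%). When each library was centred on its median, which removes that shift, 19 and 50 were called, where 15.4% and 20.2% of all genes were called higher in the same way, and the median was 0.26. The largest changes were those of small subunit genes. Rps4x, the X-linked small subunit gene, was at 184, 196 and 166 TPM in RT WT and at 288, 281 and 294 TPM in TN WT, a log2 fold change of 0.66 (adjusted p = 0.000155 with limma). Rps20 was 0.65, Rps3a1 was 0.64 and Rps7 was 0.62 higher. Rps6, the protein that the S6 kinases phosphorylate, was 0.60 higher. Rpl41 (0.06, from 398 ± 12.7 to 417 ± 45.8 TPM) and Rps19 (0.16) did not pass the test, and Rpl19 at 0.15 passed it only at any fold. Under median centring, Rps19, Rpl19 and Rpl41 were below 0, at -0.02, -0.03 and -0.12.

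The fourth comparison asked the same in Txnip-/- mice. All 77 genes were higher at TN (66.3% of all genes). Their median log2 fold change was 0.44 with a range from 0.07 to 0.69, against 0.15 over all genes, and 64 were called higher by fold and adjusted p (30.9% of all genes) and 74 at any fold (37.9%). The groups did not overlap for 76 (44.1%). Under median centring 19 and 52 were called (18.4% and 22.5% of all genes), with a median of 0.25. Rps3a1 had the largest change, from 274.5, 249 and 238 TPM in RT Txnip-/- to 461, 407 and 369 TPM in TN Txnip-/-, which was 0.69 on the log2 scale (SE 0.09, adjusted p = 1e-04 with limma). Rpl37a and Rps20, at 0.64 and 0.63, came next. Rps19 (0.07) and Rpl19 (0.11) had the smallest differences and did not pass the test, and both were below 0 under median centring, at -0.12 and -0.08. Both genotypes called 57 of the canonical genes, which are 95.0% of the calls in WT and 89.1% of those in Txnip-/-. Of all genes called higher, 75.9% and 77.1% were shared, but 60 and 64 of the 77 canonical genes were called in all. Across the 77 genes the temperature effects in WT and in Txnip-/-, which share no library, had a Pearson r of 0.772 (0.825 over all genes tested). Markers of other cell types moved with the temperature. In WT 9 of 10 macrophage, 8 of 8 fibroblast, 5 of 8 endothelial, 5 of 6 lymphocyte and 2 of 4 white adipocyte markers (median 0.74 for the last) were called higher at TN. Of the 10 brown adipocyte markers, 5 were called lower and 1 higher (median -0.43). In Txnip-/- all 10 macrophage, 8 fibroblast, 8 endothelial and 6 lymphocyte markers and 2 of 4 white adipocyte markers (median 1.34) were called higher at TN, while 8 of 8 skeletal muscle markers (median -1.80) and 7 of 10 brown adipocyte markers (median -1.035) were called lower.

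**Figure D3:**
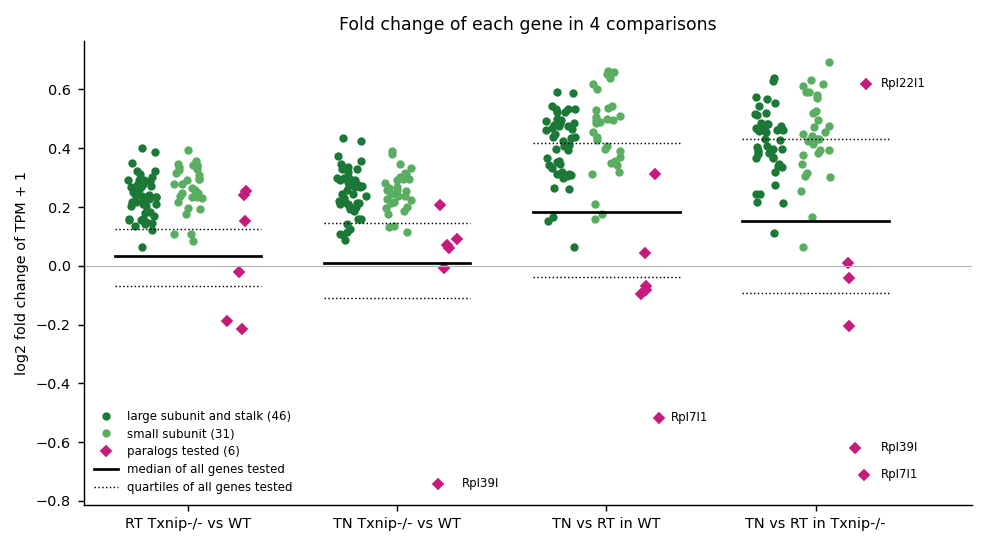
Log2 fold change of TPM + 1 (vertical axis) of each gene in the 4 comparisons, for large subunit genes, small subunit genes and the 6 paralogs tested, with the median and quartiles of all genes tested as lines. Every canonical gene is above 0, while the paralogs spread from -0.74 (Rpl39l in TN Txnip-/- against TN WT) to 0.62 (Rpl22l1 in TN against RT within Txnip-/-), with named points for those called.

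The paralogs had lower levels and other differences than their partners. Of the 9, 3 were nearly silent and were not tested. Rpl3l, known from muscle, and Rpl32l had means over the 12 libraries of 0.518 and 0.353 TPM, and Rpl10l, known from testis, was at 0 TPM in all 6 RT libraries and at no more than 0.062 TPM at TN. Of the 6 that were tested none was called at RT (3 had an unadjusted p under 0.05 with a higher mean, Rpl7l1, Rps27l and Rpl36al, where 9.89% of all genes did, and Rpl22l1 with a lower one, where 6.14% did), and 1 was called lower at TN (2.17% of all genes). In TN against RT, 1 of the 6 was called lower in WT (6.39% of all genes), and in Txnip-/- 1 was called higher (30.9% of all genes) and 2 lower (8.27%). Their median log2 fold changes were 0.06, 0.07, -0.08 and -0.12 in the 4 comparisons, where the canonical medians were 0.25, 0.26, 0.44 and 0.44.

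The ratio of paralog to partner was compared between the groups within libraries, as the log2 ratio of TPM + 1, with an exact permutation test of labels within each temperature or within each genotype. The smallest p that its 400 relabellings allow is 0.005, and p was adjusted over 12 tests. This form of the test was chosen after the data were seen, because 3 libraries against 3 cannot give an exact p under 0.1, and none of the 24 such tests of the shares did. The plain ratio of TPM does not depend on how libraries are scaled. Without the added 1 the differences kept their direction and their side of an adjusted p of 0.05 in all 12 tests.

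Rps27l, a paralog of Rps27 that is induced by p53, was abundant here. It had 229, 224 and 211 TPM in RT WT, 267, 277 and 243 TPM in RT Txnip-/-, 212, 214 and 263 TPM in TN WT, and 230, 240 and 212 TPM in TN Txnip-/-, which overlap between the temperatures in WT. Its partner Rps27 went from 306 ± 20.4 TPM in RT WT to 367 ± 25.4, 391 ± 42.6 and 454 ± 33.9 TPM in the other groups. The share of Rps27l in the pair was therefore 42.0%, 41.7%, 37.0% and 33.4%. TN libraries were below RT libraries in both genotypes, by 0.41 on the log2 ratio (exact p = 0.005, adjusted p = 0.01). The difference between genotypes was -0.12 (exact p = 0.045, adjusted p = 0.06).

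Rpl7l1, a paralog of Rpl7, fell at thermoneutrality while Rpl7 rose. Rpl7l1 had 34.3, 42.3 and 40.03 TPM in RT WT, 43.9, 50.2 and 45.3 TPM in RT Txnip-/-, 25.5, 26.2 and 28.6 TPM in TN WT, and 27.2, 26.0 and 30.9 TPM in TN Txnip-/-. Every TN library was below every RT library. The log2 fold change of TN against RT was -0.52 in WT (SE 0.09, adjusted p = 0.000984 with limma) and -0.71 in Txnip-/- (SE 0.09, adjusted p = 9.7e-05 with limma), against 0.52 and 0.46 for Rpl7. The share of Rpl7l1 went from 14.3% in both RT groups to 7.42% in TN WT and 6.83% in TN Txnip-/-, a difference of -1.10 on the log2 ratio (exact p = 0.005, adjusted p = 0.01). Between genotypes the ratio differed by -0.08 (exact p = 0.38).

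Rpl36al is a paralog of the X-linked Rpl36a and was called in no comparison. It had 76.5, 79.1 and 82.5 TPM in RT WT, 88.2, 88.2 and 88.6 TPM in RT Txnip-/-, 67.7, 73.9 and 81.4 TPM in TN WT, and 84.0, 85.0 and 88.1 TPM in TN Txnip-/-. Its share was 41.3%, 38.8%, 32.4% and 29.2% in these groups. The log2 ratio was 0.58 lower at TN (exact p = 0.005, adjusted p = 0.01) and 0.18 lower in Txnip-/- (exact p = 0.01, adjusted p = 0.0171).

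Rps4l is listed with a RefSeq transcript of the non-coding class, so its share is one of transcripts and not of proteins. That transcript of 940 bases fills its whole span on chr6:148354656-148355596 and stayed between 25.7 and 33.4 TPM in all 12 libraries, with no change called in any comparison. Its partner Rps4x rose, so the share of Rps4l went from 14.2% in RT WT to 7.80% in TN Txnip-/-. The log2 ratio was 0.67 lower at TN (exact p = 0.005, adjusted p = 0.01). It was 0.29 lower in Txnip-/- (exact p = 0.02, adjusted p = 0.03), but with single libraries left out this adjusted p ranged from 0.0225 to 0.0675.

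Rpl22l1, the paralog of Rpl22, was the only tested paralog called higher at TN in Txnip-/- mice. It had 34.1, 30.9 and 34.5 TPM in RT WT, 30.8, 25.9 and 28.8 TPM in RT Txnip-/-, 31.8, 46.4 and 48.2 TPM in TN WT, and 49.8, 45.8 and 37.8 TPM in TN Txnip-/-. The log2 fold change of TN against RT was 0.62 in Txnip-/- (SE 0.14, adjusted p = 0.00414 with limma) and 0.31 in WT (SE 0.14, adjusted p = 0.0904 with limma), and the difference between these was not past adjustment (interaction 0.31, SE 0.20, adjusted p = 0.565 with limma). Its share of the pair was 33.9%, 26.9%, 32.3% and 30.6%, with no effect of temperature on the log2 ratio that passed the test (0.07, exact p = 0.6) and a genotype difference of -0.29 (exact p = 0.05, adjusted p = 0.06).

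Rpl39l, a paralog of Rpl39 best known from the testis, was low. It had 2.34, 1.93 and 1.73 TPM in RT WT, 1.39, 1.58 and 1.93 TPM in RT Txnip-/-, 1.97, 1.87 and 1.72 TPM in TN WT, and 0.711, 0.366 and 1.124 TPM in TN Txnip-/-. TN Txnip-/- was below all other libraries. It was called lower in TN Txnip-/- against TN WT, with a log2 fold change of -0.74 (SE 0.17, adjusted p = 0.0341 with limma), and in TN against RT within Txnip-/- (-0.62, SE 0.15, adjusted p = 0.00522 with limma). At levels near 1 TPM the pseudocount sets the size of these values, and with 0.1 in its place the first was -1.34 with an adjusted p of 0.0544. On the authors' log2 values it was -0.16 (adjusted p = 0.0232 with limma), which is short of the fold threshold. On log2(TPM + 1) the adjusted p of that difference was 0.0537 with a replicate block and 0.07 without a filter on low values, both with limma. Leaving out any TN library except TN Txnip-/- replicate 3 also lost that call. Its partner Rpl39 was 0.32 higher in TN Txnip-/- than in TN WT, and the log2 ratio of the pair was 0.77 lower in Txnip-/- and 0.80 lower at TN (each exact p = 0.005, adjusted p = 0.01). Without the added 1 these differences were -1.20 (exact p = 0.01) and -1.15 (exact p = 0.005).

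**Figure D4:**
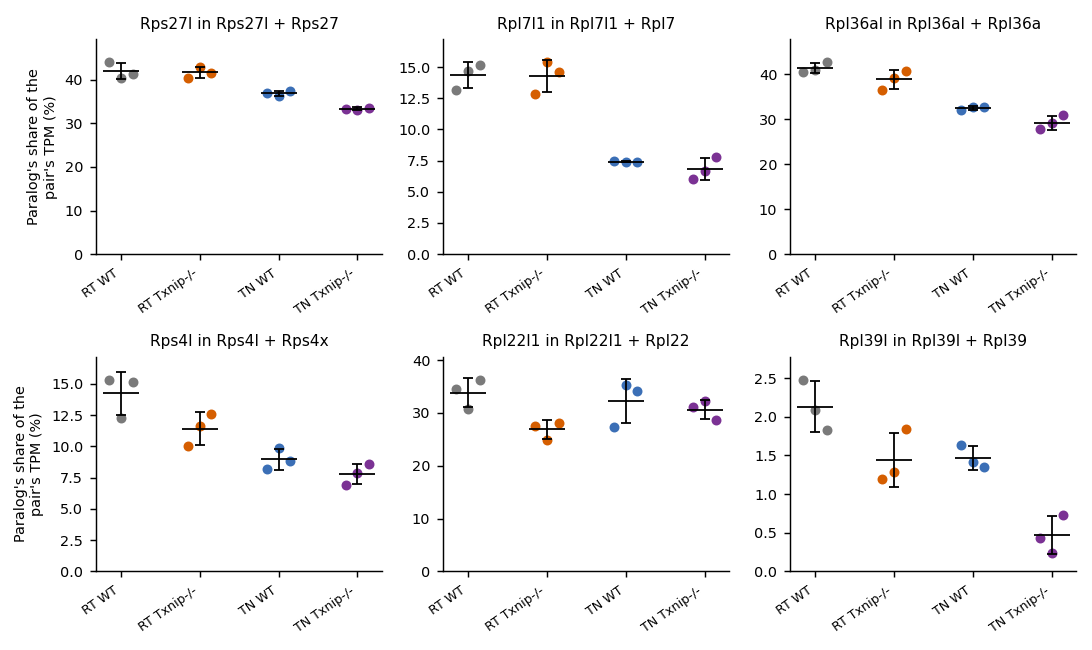
Share of the paralog in the summed TPM of the paralog and its partner (vertical axis, in percent, from 0) in the 6 pairs that could be tested. Points are libraries and the bar with whiskers is the mean ± SD (n = 3), and within each genotype the mean share is lower at TN than at RT in every pair but that of Rpl22l1.

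Genes around the ribosome were read for comparison. Fau and Rack1 are among the genes of ribosomal proteins whose symbols the rule does not take. Rack1 is a scaffold protein on the small subunit's head, and Fau makes its ribosomal protein fused to a ubiquitin-like protein. Rack1 went from 220 TPM in RT WT to 270, 322 and 378 TPM in the other groups, in the order of the canonical genes, and Fau from 235 to 263, 283 and 363 TPM. Of the 3 such genes read, none was called by limma between genotypes. Fau and Rack1, but not the third, had an unadjusted p under 0.05 at RT and at TN (9.89% and 15.6% of all genes). Of 16 translation factors and other genes whose mRNAs are known to carry a TOP motif, 16 had the higher mean in Txnip-/- at RT (59.2% of all genes), with a median log2 fold change of 0.17, 0 called by limma and 10 with an unadjusted p under 0.05 (9.89% of all genes). At TN 14 had the higher mean (51.9% of all genes), with a median of 0.16 and 1 called (6.49% of all genes). The one called was Eef1g, a subunit of the factor that reloads Eef1a1, with 0.33 on the log2 scale (adjusted p = 0.027 with limma), and the lowest were Eef2 at RT (0.03) and Npm1, a nucleolar chaperone and no translation factor, at TN (-0.03). In TN against RT within WT all 16 were higher (71.2% of all genes) and 9 were called by fold and adjusted p (31.4% of all genes), with a median of 0.36.

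Genes that build ribosomes were read next. Of 48 ribosome biogenesis genes, none was called by limma between genotypes (at an unadjusted p under 0.05, 2 higher and 1 lower at RT, where 9.89% and 6.14% of all genes were, and 2 higher at TN, where 15.6% were), with medians of 0.09 at RT and 0.02 at TN. Snu13 at 0.37 and Taf1c at -0.18 were the extremes at RT, and Nop58 at 0.28 and Rrn3 at -0.14 at TN. In TN against RT within WT 2 were called higher and 7 lower (31.4% and 6.39% of all genes), with a median of -0.07 and a range from -0.73 to 0.87. The 34 initiation factors had medians of 0.11, -0.01 and 0.13 in these 3 comparisons, with 0, 0 and 4 called higher by limma (0.76%, 6.49% and 31.4% of all genes). At an unadjusted p under 0.05, 9, 0 and 17 of them were higher, where 9.89%, 15.6% and 45.2% of all genes were, and 1 was lower at TN, where 10.0% were. Eif5 was the highest at RT (0.31, adjusted p = 0.0575 with limma) and the lowest at TN (-0.24). Of 22 genes of mTORC1 and translation control none was called by limma at RT (3 higher at an unadjusted p under 0.05, against 9.89% of all genes). At TN 2 were called higher (6.49% of all genes), among them Rps6ka1 at 0.58 (adjusted p = 0.0204 with limma), and 5 were higher and 2 lower at an unadjusted p under 0.05 (15.6% and 10.0% of all genes). Of the 7 hosts of small nucleolar RNAs none was called between genotypes by limma or at an unadjusted p under 0.05.

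The 78 mitochondrial ribosomal protein genes had medians of 0.01, -0.13, -0.06 and -0.20 in the 4 comparisons, with 0, 5, 9 and 18 called lower by fold and adjusted p, where 0.726%, 2.17%, 6.39% and 8.27% of all genes were, and 0, 0, 1 and 2 called higher, where 0.76%, 6.49%, 31.4% and 30.9% were. Their summed TPM was 0.876-fold at TN against RT in Txnip-/-, where that of the cytosolic genes was 1.34-fold. The proteasome subunits, another set taken by symbol, had medians of 0.07, 0.01, 0.01 and -0.07 among 37 tested. For TN against RT single subunits ran from -0.49 to 1.32 in WT and from -0.60 to 1.46 in Txnip-/-. There was no call by limma between genotypes (at an unadjusted p under 0.05, 6 were higher at RT, where 9.89% of all genes were, and 1 was lower at TN, where 10.0% were).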

How the data were processed

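Bulk RNA-seq of BAT was analysed in 4 groups of 3 libraries. Per the submitters' processing notes and the methods, the authors used bcl2fastq, aligned reads to mm10 with STAR 2.7.5a, counted exon reads with HOMER 4.11.1 for 1 transcript per gene, and named DESeq2 for their tests. They deposited TPM for all 12 libraries, which were used here, and log2 values per library for each genotype comparison, which were an alternative. In the log2 values of each temperature, 15 of the 86 genes were listed with another transcript than in the TPM. The columns of the authors' own fold changes and p-values were not used.

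A count test had been planned, but the values are TPM, so limma 3.58.1 (R 4.3.3) was run on log2(TPM + 1) over genes with a mean of at least 1 TPM in the libraries fitted, with a trended empirical Bayes step and Benjamini-Hochberg adjustment over all genes. Genotype comparisons were fitted on the 6 libraries of a temperature, temperature comparisons and the interaction on all 12. A call needed a fold above 1.25 or below 0.8 and an adjusted p under 0.05. TPM carry no counting error, so depth enters only through the spread of replicates. Figures were drawn with Python 3.11.15 and matplotlib 3.10.9. Start sequences came from RefSeq on GRCm38.p6, for genes whose annotated start matched the listed transcript.

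Named genes were every paralog with its partner, the 3 canonical genes with the highest and the 3 with the lowest mean, the 3 largest and 3 smallest differences in each comparison, every called gene or the 6 largest where over 12 were called, Fau, Rack1, the extremes of each gene list, and Txnip. Some genes that this rule names are not reported here. The genes and lists were chosen with earlier results of these data known. Alternatives were another pseudocount (0.1), no filter, other scalings, length and GC trends removed, a replicate block, other fits and each library left out.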

Additional observations from a re-analysis of the deposited data

How the results depend on the processing

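All medians of the canonical genes in the genotype and temperature comparisons kept their direction, while the counts of calls depended on the settings. In RT Txnip-/- against WT, the 6 calls by fold and adjusted p (7 at any fold) became 0 (0) without a filter, with a replicate block and without the trend (0.091%, 0.401% and 0.509% of all genes by fold), 2 (2) with upper-quartile scaling and with the GC trend removed (0.618% and 0.546%), 3 (3) with median centring and with the length trend removed (0.634% and 0.626%), 0 (1) on the authors' log2 values (0.559% and 0.743%), where the median was 0.13, 10 (16) in a fit of all 12 libraries (1.16% and 1.39% of all genes), 13 (32) at an adjusted p of 0.1 (1.64% and 2.05%), and 0 to 0 with each library left out (0% to 0.616% by fold). In TN Txnip-/- against WT, the 10 (15) became 1 (2) without a filter, 1 (4) with median centring, 3 (6) with the GC trend removed, 1 (1) with a replicate block and 4 (5) without the trend, where 2.15%, 5.65%, 5.87%, 5.65% and 6.44% of all genes were called by fold. On the authors' log2 values they were 0 (11), beside 4.72% and 7.14% of all genes. Upper-quartile scaling gave 7 (12) and removing the length trend 8 (22), beside 6.33% and 6.43% of all genes by fold. They were 13 (42) in the fit of all 12 libraries (6.56% and 7.42%) and 13 (41) at an adjusted p of 0.1 (8.62% and 10.3%). The counts by fold and at any fold both ran from 0 to 18 with each library left out, where 2.79% to 5.64% of all genes were called by fold. The fit without both replicate 2 libraries at TN, chosen after seeing the data, gave 0 and 0 (0.786% of all genes). Whether the replicate numbers pair the libraries is not known. Same-numbered libraries correlated at 0.3, -0.013 and 0.216 at RT, where differently numbered ones ran from -0.305 to 0.158. At TN they correlated at 0.039, 0.023 and -0.029, where the others ran from -0.08 to 0.066. These are deviations from means of 3 libraries, which cannot decide the question. For TN against RT in WT the median was 0.34 with upper-quartile scaling and 0.26 with median centring (19 calls by fold, 15.4% of all genes). It was 0.32 with the length trend removed (39 calls by fold) and 0.27 with the GC trend removed (23 calls by fold). The share of all genes called is not given for the length and GC settings, so 39 and 23 cannot be set against it. In Txnip-/- the median was 0.25 with median centring (19 calls by fold, 18.4% of all genes). It was 0.33 with the length trend removed and 0.28 with the GC trend removed. In both genotypes, centring or removing the length or GC trend left fewer canonical genes called by fold than the main fit. The cause of these changes was not tested.

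Some single genes near 0 changed sign. Rpl38 at RT was -0.0011 on the authors' log2 values, Rps27l at TN was 0.0109 and the interaction of Rpl7 0.0031 with the GC trend removed. For TN against RT in WT, median centring gave -0.0235 for Rps19 and -0.0299 for Rpl19, and upper-quartile scaling, median centring, length and GC gave -0.0401, -0.1209, -0.0273 and -0.0687 for Rpl41 and -0.057, -0.138, -0.0501 and -0.1688 for Rps27l. In Txnip-/- the same 4 settings gave -0.0155, -0.1238, -0.023 and -0.1061 for Rps19 and -0.0691, -0.1798, -0.1016 and -0.1927 for Rps4l, and median centring and GC gave -0.077 and -0.0526 for Rpl19. With each library left out, the TN genotype difference ran from -0.001 to 0.1489 for Rpl36, from -0.0954 to 0.0942 for Rps27l, from -0.0079 to 0.113 for Rpl7l1, from -0.0025 to 0.1836 for Rps4l and from -0.0961 to 0.2004 for Rpl22l1, and that of Rps4l at RT from -0.0872 to 0.0516. TN against RT in WT ran from -0.0155 to 0.1434 for Rpl41, from -0.057 to 0.0993 for Rps27l and from -0.1344 to 0.0125 for Rpl39l, and in Txnip-/- from -0.0629 to 0.0643 for Rps4l. The interaction ran from -0.0104 to 0.1207 for Rpl36al, from -0.0992 to 0.0455 for Rps27, from -0.1198 to 0.0202 for Rps4x and from -0.04 to 0.0797 for Rpl39. The genotype difference of the log2 ratio, in a test chosen after seeing the data, ran from -0.1428 to -0.0916 for Rps27l, from -0.3531 to -0.2441 for Rps4l and from -0.3653 to -0.2374 for Rpl22l1, and each of these was on the other side of an adjusted p of 0.05 without some library.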

Other observations

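In Txnip-/- mice, TN against RT, 6 of the 16 translation factors and other genes with TOP mRNAs were called higher by limma, beside 30.9% of all genes, with a median log2 fold change of 0.30. In the same comparison 1 of the 48 ribosome biogenesis genes was called higher and 11 lower (8.27% of all genes), with a median of -0.11, and 3 of the 34 initiation factors were called higher and 1 lower. Eif5, an initiation factor that acts on Eif2, had a genotype effect that was 0.55 lower at TN than at RT on the log2 scale (SE 0.10, adjusted p = 0.0776 with limma), with means of 102 TPM in WT and 128 TPM in Txnip-/- at RT and of 149 TPM in WT and 126 TPM in Txnip-/- at TN.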
